A study of Ovis aries with 27 samples.

Results

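ALDH1A1 and UGT1A9 are enzymes that oxidise aldehydes and that attach glucuronic acid to small molecules. Their transcripts were followed in the septum of the fetal sheep heart, the muscular wall between its chambers. Both genes were chosen by their measured signal in control fetuses, which was higher at 140 d than at 130 d of gestation, so that difference is given here as a description with no test. Their probes were found by gene name, RefSeq accession or description in the array files. The arrays carried 3 such probes for these 2 of the 805 named genes tested, among 15008 probes in all. Of these, 2 probes, 1 for each gene, were among the 12778 probes that passed the filter for signal above background and were tested.

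RNA from 27 fetuses was hybridised to 1-colour Agilent arrays, with 1 array per fetus. Older fetuses were sampled between 139 and 144 d of gestation, 7 after cortisol and 8 as controls. Younger fetuses were sampled between 129 and 131 d, 6 after cortisol and 6 as controls. Cortisol was given to the ewe as a constant infusion of 1 mg per kg per day, and control ewes received vehicle in its place. The infusion lasted about 25 d in the older cohort and about 10 d in the younger one. One label starts the younger infusions near day 120 and another starts all infusions near day 115. Since each age was a cohort of its own with its own length of infusion, effects of age, cohort and exposure time cannot be told apart here. The 8 older controls came from 7 ewes, and which of them were twins is not labelled, so each fetus was counted as independent. No breed or genotype is given in the labels. Between 77.0% and 87.0% of the spots of an array were well above background, and the 75th percentile of intensity ran from 602 to 1273. In controls that percentile was 757 to 954 at 140 d and 977 to 1273 at 130 d. After cortisol it was 602 to 1079 at 140 d and 977 to 1195 at 130 d. Array brightness thus partly went with age, and its part in the age differences was not tested. Cortisol 140 d replicate 4 was the least like its own group, with a median Pearson r of 0.957 over probes, and control 140 d replicate 1 was next at 0.971. Results without control 140 d replicate 1 are given beside those with it, and without cortisol 140 d replicate 4 the difference of 140 d minus 130 d in the cortisol arm was 1.39 for ALDH1A1 and -0.35 for UGT1A9 (log2).

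ALDH1A1 (aldehyde dehydrogenase 1 family member A1) oxidises retinaldehyde to retinoic acid, the form of vitamin A that binds nuclear receptors and switches genes on. Retinoic acid made by this enzyme family shapes the embryonic heart, where the related enzyme ALDH1A2 is the main source in mice. UGT1A9 belongs to the UDP-glucuronosyltransferases, which make drugs, phenols and some hormones more soluble. It is best known from human liver and kidney. In humans, the UGT1A enzymes are made from 1 locus in which separate first exons join the same last exons.

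The start of each probe is shown because the results for each gene rest on these oligos. The array files also place both UGT1A9 probes side by side on the same transcript. The first 30 of the 60 bases of each probe are given as listed in the array files, 5′ to 3′, in lower case with no base marked.
ALDH1A1 probe A_70_P030026: gtctgcttgtcaaatgaagtaatgcctgaa
UGT1A9 probe A_70_P030377: ttagtggggaaagaatgatgtatgaaattg
UGT1A9 probe A_70_P030376: gcttgtaccaaacagatctgaatttgacag
The files place the ALDH1A1 probe at base 1998 of its transcript and the UGT1A9 probes at bases 2161 and 2221. With a length of 60 bases each, the UGT1A9 probes abut without overlap. The files name that transcript SHEUGT1A07, which the RefSeq gene table of sheep (assembly ARS-UI_Ramb_v3.0) lists as a synonym of UGT1A9. There, 5 UGT1A genes share 1 end of their span to within 1 base. UGT1A1, UGT1A3, UGT1A4 and UGT1A6 had 0 probes of their own found on the array under these names. Whether the UGT1A9 probes also read transcripts of those genes was not tested, so their signal is given as that of the UGT1A9 probes. The array files give the probes no genome position, and none is given here.

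ALDH1A1 gave a bright signal that was higher in the older fetuses of both arms. Its group means ran, from high to low, from cortisol 140 d and control 140 d to cortisol 130 d and control 130 d. The arms differed at each age by less than the SD of the cortisol group. At 140 d the difference of 0.35 (log2) was not smaller than the control SD of 0.34. All values below are log2 of the spot intensity relative to the array's 75th percentile, so 0 is the level of a probe brighter than 75% of the spots. The ALDH1A1 probe was well above background on 27 of 27 arrays, and no spot of it was saturated. After cortisol at 140 d its level ran from 2.26 to 4.55 with a median of 3.64 (7 arrays). After cortisol at 130 d it ran from 0.94 to 3.39 with a median of 2.51 (6 arrays). All 7 older cortisol arrays lay above the mean of the younger ones, and 5 of the 7 lay above every younger one. The share of tested probes with at least 5 above was not counted, and 1.54% had all 7 above. The groups overlapped through replicate 7 at 140 d, at 3.17, which lay below replicate 2 at 130 d, at 3.39, and through replicate 5 at 140 d, at 2.26, which lay below replicates 2, 4, 5 and 6 at 130 d.

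In the cortisol arm ALDH1A1 rose by 1.40 ± 0.38 (log2, SE), a 2.64-fold difference. The 140 d mean was 3.61 ± 0.76 (SD, n = 7) and the 130 d mean was 2.22 ± 0.96 (SD, n = 6). The adjusted p was 0.0167 (limma, Benjamini-Hochberg over 12778 probes), with a 95% interval of 0.61 to 2.19. The difference that chose the gene was taken between control arrays, though results of the cortisol arrays were also known by then. In this comparison 13.5% of all tested probes passed the same threshold in either direction and 4.94% were higher at 140 d, so a call by itself was common. A rise of at least this size was less so, with 46 probes (0.36%) at or above it. An exact 2-sided permutation test over the 13 cortisol arrays, which uses no control array, gave p = 0.0163. Adjusted over the 2 probes tested in this way it was 0.0326, and the smallest p that the 1716 arrangements allow is 5.83e-04.

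The limma call was lost in 3 of the settings run, and the cause was not tested. With normexp background correction the rise was 1.41 with an adjusted limma p of 0.0571. With the 2 cortisol groups fitted alone it was 1.40 with an adjusted limma p of 0.0559. Without cortisol 130 d replicate 1, the lowest array of its group, it was 1.14 with an adjusted limma p of 0.0533. Over all settings the adjusted limma p ran from 0.00526 to 0.0571. The exact p, adjusted over 2 probes, was above 0.05 without replicate 1 or 3 at 130 d and without replicate 1, 2, 3, 4 or 6 at 140 d, reaching 0.0649 in these 7 of 13 settings. The direction held in every setting run, and 3 slides with both ages gave differences of 1.83, 0.98 and 1.69. The first 2 of these rest on 2 older against 2 younger arrays, and the last on 1 against 2.

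In the control arm, from which the gene was chosen, ALDH1A1 ran from 2.90 to 3.79 with a median of 3.17 at 140 d (8 arrays). At 130 d the control arrays ran from 0.81 to 2.95 with a median of 1.78 (6 arrays). The older controls were the tightest of the 4 groups, with an SD of 0.34, against 0.79 in the younger controls. The means were 3.27 and 1.74, a difference of 1.53 ± 0.37 (log2, SE) that is 2.89-fold. Replicates 1 and 4 at 140 d, at 2.94 and 2.90, lay just inside the range of the younger controls, whose replicate 3 was at 2.95. All 8 older controls lay above the mean of the younger ones and 6 of the 8 above every one of them. In this comparison 19.1% of tested probes were called, 9.77% were called higher at 140 d, and 3.52% had all older arrays above all younger ones. The share with at least 6 of 8 above was not counted. Without control 140 d replicate 1 the difference was 1.58.

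**Figure D1:**
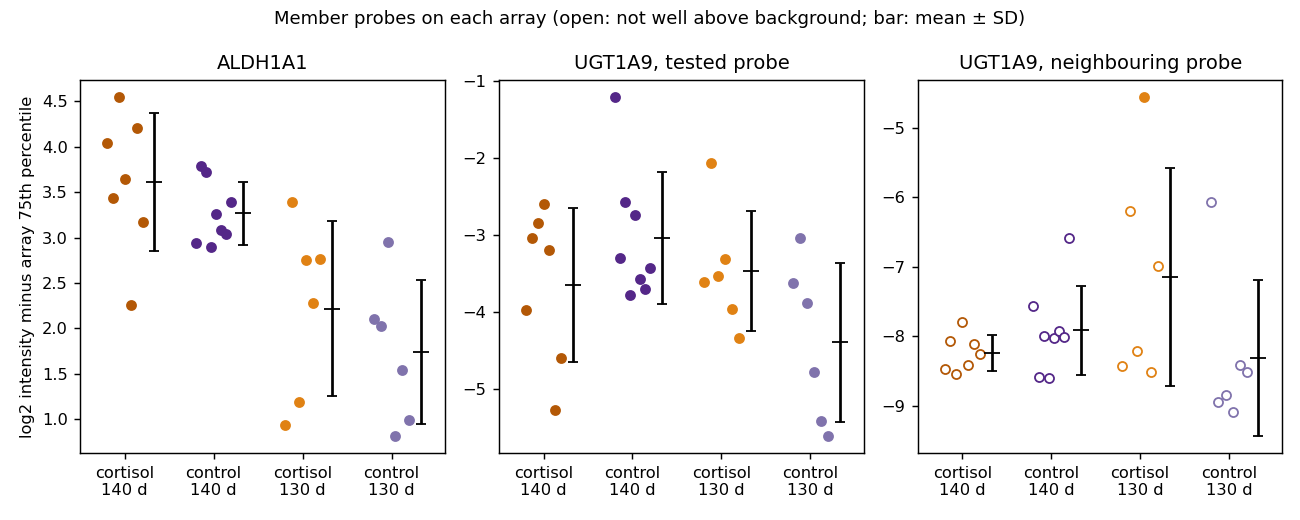
Each point is 1 array, placed by group on the x axis and by log2 intensity relative to the array's 75th percentile on the y axis, with the mean and SD of each group beside it and open points for spots not well above background. ALDH1A1 lay between 2.26 and 4.55 in both 140 d groups and between 0.81 and 3.39 in both 130 d groups, while only 1 point of the neighbouring UGT1A9 probe is filled.

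UGT1A9 gave a low signal that spread widely within every group, with SDs of 0.77 to 1.03 (log2). Its group means ran, from high to low, from control 140 d over cortisol 130 d and cortisol 140 d to control 130 d, and each gap between neighbours was smaller than the SDs of both groups. The probe of UGT1A9 with the higher signal was well above background on 27 of 27 arrays. Its intensity ran from 23.6 to 370, against 8.0 to 17.5 for the dimmest probe well above background on each array. After cortisol at 140 d it ran from -5.27 to -2.59 with a median of -3.19 (7 arrays). After cortisol at 130 d it ran from -4.33 to -2.06 with a median of -3.57 (6 arrays). The younger cortisol arrays lay inside the range of the older ones except replicate 2, the highest of the 13.

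In the cortisol arm the UGT1A9 difference between the ages was -0.17 ± 0.49 (log2, SE). Its 95% interval of -1.17 to 0.83 includes both a fall and a rise of over 0.8. The means were -3.64 ± 1.00 at 140 d (SD, n = 7) and -3.47 ± 0.77 at 130 d (SD, n = 6), and the adjusted p was 0.857 (limma). The exact permutation test over the 13 cortisol arrays gave p = 0.737. The sign turned without cortisol 130 d replicate 2, to 0.11, and without cortisol 140 d replicate 6, to 0.10.

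In the control arm, which served to choose the gene, UGT1A9 ran from -3.77 to -1.20 with a median of -3.36 at 140 d (8 arrays). At 130 d the control arrays ran from -5.61 to -3.04 with a median of -4.33 (6 arrays). The means were -3.03 ± 0.86 (SD, n = 8) and -4.39 ± 1.03 (SD, n = 6), a difference of 1.35 ± 0.47 (log2, SE) that is 2.56-fold. All 8 older controls lay above the mean of the younger ones, but only 3 lay above every one of them. Replicate 1 at 140 d stood apart at -1.20, with an intensity of 370 against 64.3 to 148 on the other arrays of its group. Without it the group mean was -3.29 ± 0.47 (SD, n = 7) and the difference was 1.09. On that array the summed level of the adipocyte markers, made up mostly by LPL, was the highest of the 27 arrays. So was that of the lung epithelium markers, at 0.228. The sums of the endothelial markers (2 of 7 measured) and of the immune markers (5 of 7 measured) were the lowest. So was the level of WT1, the only 1 of 5 epicardial markers measured. From the highest down, the liver sum ranked 26 of 27. The fibroblast, red blood cell and smooth muscle levels ranked 23, 23 and 21. The part of these markers in the UGT1A9 value of this array was not tested.

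The neighbouring UGT1A9 probe was not well above background on 26 of 27 arrays. The exception was cortisol 130 d replicate 4, at -4.55. Its intensity on the other arrays was no higher than 17, so it gives no second measure of the gene. No fold is given for it, since in every group but cortisol at 130 d it was not well above background on any array. Why its signal was lower than that of the brighter probe was not tested.

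UGT1A9 also moved with the slide, which was read from the barcode in the header of each array. On slide 2, with 8 arrays of all 4 groups, its values lay on average 0.80 above their own group means, and 6 of 8 arrays were above. On slide 4, with 6 arrays of all 4 groups, they lay 0.82 below, and 1 of 6 was above. On slide 5, with 4 arrays of both 140 d groups, 0 of 4 arrays were above, at a mean deviation of -0.64. The highest older control was on slide 2. Fitting slide beside group brought the residual SD of UGT1A9 to 0.66, against 0.92 with group alone. For ALDH1A1 the same step gave 0.77, against 0.72 with group alone, and its mean deviations on slides 2 to 5 lay between -0.18 and 0.19. With slide as a block the UGT1A9 difference was -0.13 in the cortisol arm, with an adjusted p of 0.852 (limma), and 1.54 in the control arm. Within slides 2, 3 and 4 the difference in the cortisol arm was -0.10, 0.53 and -1.13, and that in the control arm was 1.08, 1.16 and 2.77. In each arm these rest on 2 older against 2 younger arrays on slides 2 and 3, and on 1 against 2 on slide 4.

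**Figure D2:**
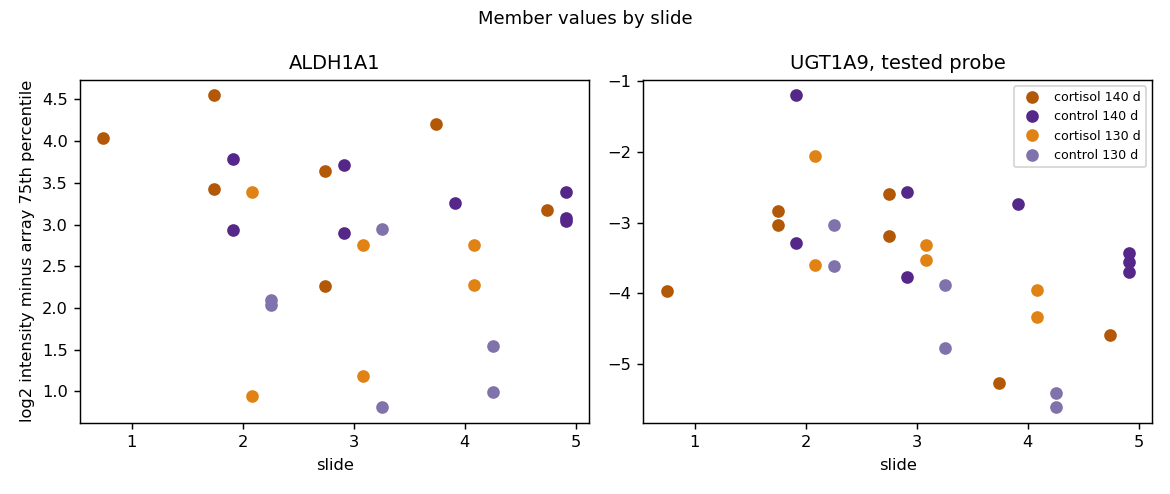
Each point is 1 array, with the slide on the x axis, the log2 intensity relative to the array's 75th percentile on the y axis and the group by colour. The median of UGT1A9 was -3.03 on slide 2 and -4.80 on slide 4, while ALDH1A1 spans a similar range on slides 2, 3 and 4.

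The study asked what maternal cortisol does to the fetal heart at each age, and for neither gene did a cortisol comparison pass the threshold. The control arrays that served to choose the genes enter these comparisons, so their sizes, intervals and counts carry that choice. Choosing genes with lower control signal at 130 d than at 140 d favours a higher cortisol difference at 130 d and a lower one at 140 d. At 140 d ALDH1A1 was 0.35 ± 0.36 (log2, SE) higher after cortisol, with a 95% interval of -0.39 to 1.08 and an adjusted p of 0.829 (limma). Without control 140 d replicate 1 it was 0.30, with an adjusted p of 0.941 (limma). At 130 d the difference was 0.48 ± 0.40, with an interval of -0.34 to 1.30 and an adjusted p of 1 (limma). After cortisol 5 of 7 arrays at 140 d and 4 of 6 at 130 d lay above the control mean of their age.

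For UGT1A9 the cortisol difference was -0.61 ± 0.45 (log2, SE) at 140 d, with an interval of -1.54 to 0.32 and an adjusted p of 0.808 (limma). Without control 140 d replicate 1 it was -0.34, with an adjusted p of 0.941 (limma). At 130 d it was 0.92 ± 0.50, with an interval of -0.12 to 1.96 and an adjusted p of 1 (limma). All 6 cortisol arrays at 130 d lay above the control mean, though 1 of 6 lay above every control. The choice of the gene by its control arrays favours such a count, so it is a description only. Within slides 2, 3 and 4 the 130 d difference was 0.50, 0.90 and 1.37, from 2 arrays of each group per slide, and the same choice enters these values. In each of these comparisons 0% of the tested probes were called, against 727 probes at 140 d and 455 probes at 130 d with an unadjusted limma p under 0.05.

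The change of the cortisol difference between the ages was tested as an interaction. For ALDH1A1 it was -0.13 ± 0.53 (log2, SE), with an adjusted p of 0.995 (limma), so the 140 d minus 130 d differences of 1.40 after cortisol and 1.53 in controls could not be told apart. Without control 140 d replicate 1 it was -0.18. For UGT1A9 it was -1.53 ± 0.68, with an interval of -2.92 to -0.14, an unadjusted p of 0.0328 and an adjusted p of 0.776 (limma). It was -1.27 without control 140 d replicate 1 and -1.67 with slide as a block, with an adjusted p of 0.285 (limma). Thus the age differences of -0.17 after cortisol and 1.35 in controls were not shown to differ after adjustment. The control difference by which both genes were chosen is part of this contrast, so its size, interval and p carry that choice. In this comparison 0% of the tested probes were called, and 743 had an unadjusted limma p under 0.05.

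**Figure D3:**
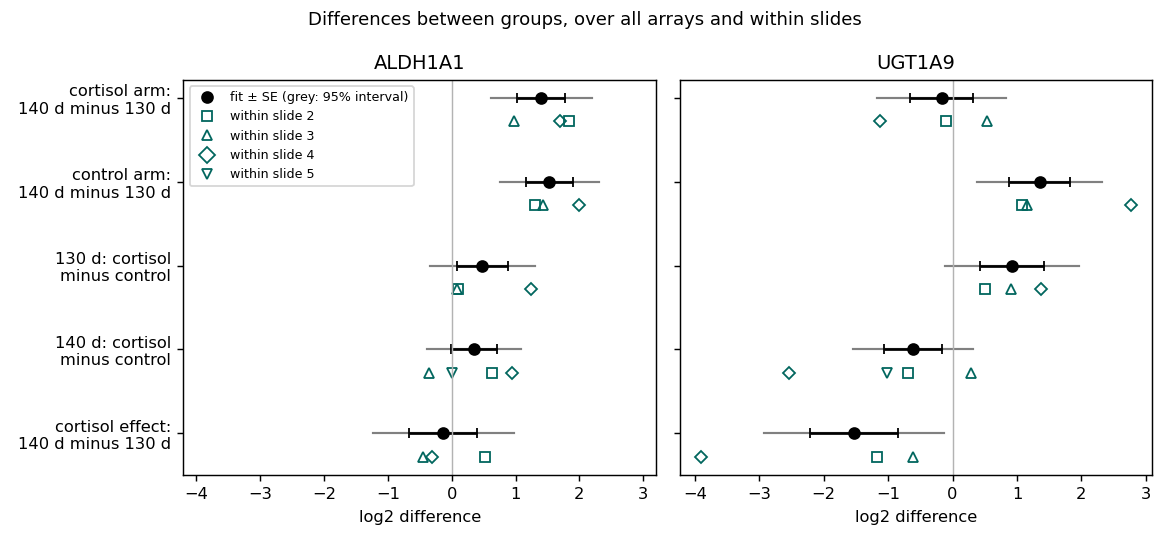
The x axis gives the log2 difference named at the left for ALDH1A1 and UGT1A9, with black points for the fit over 27 arrays, bars for its SE, grey lines for the 95% interval and open symbols for the difference within 1 slide. In both age comparisons ALDH1A1 is above 0 on slides 2, 3 and 4, those with both ages. Both genes were chosen by the control age comparison, so its sign is no separate result. The open symbols of UGT1A9 spread from -3.90 to 2.77, and each open symbol rests on 1 to 3 arrays per group.

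**Figure D4:**
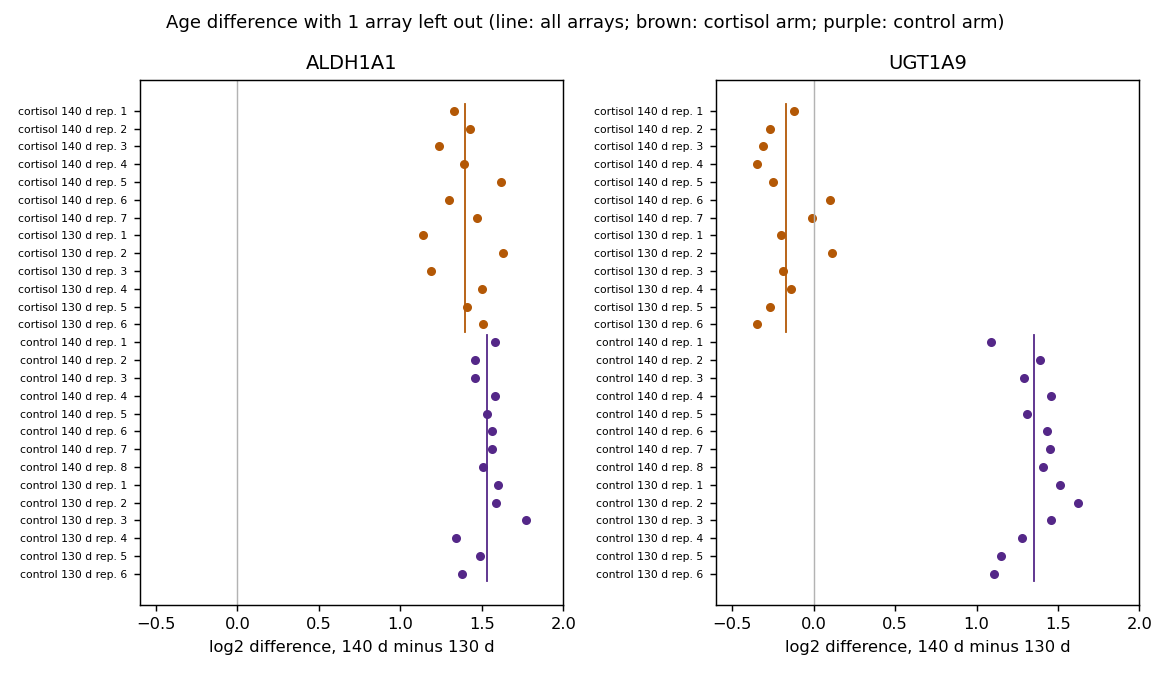
Each point is the log2 difference of 140 d minus 130 d with the array named at the left omitted, and vertical lines give the value with all arrays. ALDH1A1 stays between 1.14 and 1.63 in the cortisol arm and between 1.34 and 1.77 in the control arm, while UGT1A9 in the cortisol arm lies between -0.35 and 0.11.

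Few other genes of these pathways could be read, and the rest of the retinoic acid pathway was not found on the array under the symbols used. Of 11 genes of retinoid uptake and transport, 2 were on the array under the symbols used. FABP5, a fatty acid binding protein that can also carry retinoic acid to a nuclear receptor in mice, rose in the cortisol arm by 1.39 ± 0.40 (log2, SE). Its mean was 3.92 at 140 d and 2.53 at 130 d, with an adjusted p of 0.023 (limma). In controls the FABP5 difference was 0.47 ± 0.39, with an adjusted p of 0.422 (limma), and the interaction of 0.92 ± 0.56 did not pass, with an adjusted p of 0.962 (limma). TTR, which carries retinol-binding protein in blood, was well above background on 7 arrays and was not called in any comparison. Lists of 20 genes of retinoid synthesis and storage, 3 of retinoic acid breakdown, 6 retinoic acid and retinoid X receptors and 12 genes induced by retinoic acid had 0 members found under their symbols. The same held for 14 other aldehyde dehydrogenases and 20 other UDP-glucuronosyltransferases.

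Of the measured genes of glucuronide handling, other conjugation, oxidation and nuclear receptors, 0 were called in the cortisol arm by their brightest probe. ABCG2, an efflux pump that exports conjugates, differed by -0.10 ± 0.20 (log2, SE), with an adjusted p of 0.803 (limma), and was the only 1 of 8 genes of glucuronide supply and handling found under its symbol. GSTA1, a glutathione transferase and the only 1 of 28 other conjugation genes found under its symbol, differed by 0.28 ± 0.11, with an adjusted p of 0.0779 (limma). GSTA1 rose in controls by 0.39 ± 0.10, with an adjusted p of 0.0103 (limma), but its other probe differed by 0.13 there and was not called. Of 27 phase I enzymes 4 were found on the array and 1 was tested. That gene, CYP2J, a cytochrome P450, differed by -0.33 ± 0.17, with an adjusted p of 0.204 (limma), while its other probe fell by 0.61 in the cortisol arm with an adjusted p of 0.0223 (limma). Of 16 nuclear receptors and related factors 6 were found on the array and 5 were tested, with 0 called in the cortisol arm, where 13.5% of all tested probes were, and 1 in controls, where 19.1% were. PPARG, the receptor that drives fat cell formation, differed by 0.77 ± 0.27 in the cortisol arm, with an adjusted p of 0.0596 (limma). PPARA, a receptor that switches on fatty acid oxidation, differed by 0.37 ± 0.14 in the cortisol arm, with an adjusted p of 0.07 (limma), and rose by 0.40 ± 0.13 in controls, with an adjusted p of 0.0346 (limma). The glucocorticoid receptor gene NR3C1 differed by 0.01 ± 0.17 in the cortisol arm. In the cortisol comparisons at either age 0 of these genes were called. The median log2 difference of all tested probes was -0.04 in the cortisol arm and -0.01 in controls.

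**Figure D5:**
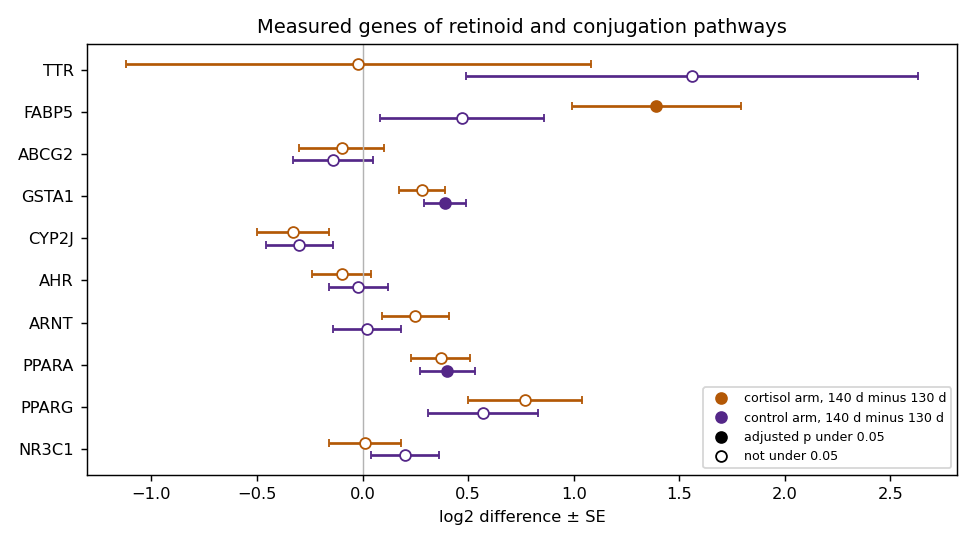
The x axis gives the log2 difference of 140 d minus 130 d with its SE for each related gene tested, in the cortisol arm and in controls, with filled points for an adjusted p under 0.05. FABP5 at 1.39 is the only filled point of the cortisol arm, and GSTA1 at 0.39 and PPARA at 0.40 are those of the control arm.

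The septum holds several cell types, and in bulk tissue fewer cells of a type and less RNA per cell cannot be told apart. Heart muscle genes MB and TPM1 were well above background on 27 arrays, while 0 of the 9 listed heart muscle markers were on the array under their symbols. TPM1 rose by 0.44 in the cortisol arm, with an adjusted p of 0.00376 (limma), while the MB probes differed by 0.19 and 0.12 and were not called. MB and TPM1 were chosen after their values were seen. Levels of marker lists are sums of the members' linear values, in multiples of the array's 75th percentile. Of 5 adipocyte markers 4 were measured and ADIPOQ was not found on the array under that symbol. By their brightest probe 2 of the 4 rose in the cortisol arm, where 4.94% of all tested probes were called higher. In controls 3 of the 4 rose, where 9.77% were called higher. The sum of the 4 was made up mostly by LPL, so it follows that gene more than the cell type. After cortisol it ran from 4.34 to 7.7 at 140 d and from 2.4 to 3.91 at 130 d, without overlap. Of single tested probes, 1.54% had all older cortisol arrays above all younger ones. In controls the sum was 4.56 to 8.42 at 140 d and 2.8 to 5.55 at 130 d. LPL, the lipase that frees fatty acids from blood lipoproteins, rose by 0.87 in the cortisol arm, with a mean log2 level of 2.22 at 140 d and 1.35 at 130 d. PLIN1, which coats lipid droplets and had a mean log2 level of -1.18 at 140 d, rose by 0.48. LEP and FABP4 differed by 0.04 and -0.29 in the cortisol arm and were not called. In controls LPL and PLIN1 rose by 0.77 and 0.48, with adjusted p of 0.00541 and 0.00875 (limma). LEP rose there by 0.51, with an adjusted p of 0.00182 (limma), but its other probe differed by -0.09 and was not called. The part of these markers in the ALDH1A1 difference was not tested.

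In humans the liver is rich in both enzymes, so liver markers were read as well, with 4 of 9 measured. ALB, the main serum protein, was well above background on 11 of 27 arrays and fell by 2.07 in the cortisol arm, while APOA1 fell by 1.30, with adjusted p of 0.0397 and 0.00174 (limma). The other ALB probe differed by -0.90 and was not called, and TF, the iron carrier of blood, and TTR differed by 0.79 and -0.02 and were not called. The liver sum was 0.808 to 8.69 after cortisol at 140 d, 1.01 to 3.07 in controls at 140 d, 1.32 to 2.47 after cortisol at 130 d and 1.16 to 2.73 in controls at 130 d. By their brightest probe the red blood cell markers HBB and AHSP differed by -1.35 and -1.92 in the cortisol arm and were not called, while another AHSP probe fell by 2.37 there, with an adjusted p of 0.0366 (limma). The other HBB probe differed by 0.69 in the cortisol arm and by -1.54 in controls and was not called in either. By their brightest probe HBB fell in controls by 2.00 and AHSP by 3.26, with adjusted p of 0.0176 and 0.00273 (limma). Their sum was 1.58 to 33.6 after cortisol at 140 d, 3.02 to 28 in controls at 140 d, 19 to 43.6 after cortisol at 130 d and 16.8 to 56.4 in controls at 130 d. By their brightest probe, 0 of 5 immune markers were called in the cortisol arm and 3 fell in controls. Of 4 fibroblast markers 0 were called in the cortisol arm and 1, COL3A1, fell in controls by the brightest probe. Another COL3A1 probe fell by 0.82 in the cortisol arm, with an adjusted p of 0.0275 (limma). Of 3 lung epithelium markers measured, out of 5 listed for thyroid and lung, 0 were called in the cortisol arm. SFTPA1, a surfactant protein, rose by 0.52 in controls, with an adjusted p of 0.0144 (limma). The dimmer SFTPB probe rose there by 0.47, with an adjusted p of 0.0197 (limma). The brightest SFTPB probe, at 0.53, and both SFTPC probes, at 0.20 and -1.08, were not called there. The sum of the 3 lung markers was 0.116 to 0.182 after cortisol at 140 d and 0.154 to 0.228 in controls at 140 d. At 130 d it was 0.125 to 0.189 after cortisol and 0.101 to 0.219 in controls. The shares of all tested probes called, against which these counts are read, were 13.5% in the cortisol arm and 19.1% in controls. Their part in the member values was not tested. Nerve and gut or kidney lists had 0 members found on the array under their symbols.

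With group means removed, the gene most like ALDH1A1 across the 27 arrays was CYBB, a subunit of the phagocyte NADPH oxidase, with a Pearson r of 0.59 among 803 named genes. CHRD, CLEC4E, CHI3L1 and AGTR1 came next at 0.48, 0.47, 0.46 and 0.46. For UGT1A9 the likeness was closer, with RGS2, a regulator of G protein signalling, at 0.77, NOX5, an NADPH oxidase, at 0.77 and the growth hormone receptor GHR at 0.76. SFTPA1 and XCL1 followed at 0.73 each. These genes were picked as the highest of 803 and no test was made. The lowest r over the same genes was -0.50 for ALDH1A1 and -0.72 for UGT1A9. Arrays of a slide share its effects, and with slide means removed as well the values for UGT1A9 were lower, at 0.64 for RGS2, 0.57 for XCL1, 0.52 for SFTPA1, 0.51 for NOX5 and 0.39 for GHR. For ALDH1A1 they were then 0.61 for CHI3L1, 0.59 for CYBB, 0.59 for CLEC4E, 0.53 for CHRD and 0.52 for AGTR1. Without control 140 d replicate 1 RGS2 was at 0.71, GHR at 0.83 and CYBB at 0.62. Among the genes like UGT1A9, RGS2 then ranked 6 and XCL1 ranked 11.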

How the data were processed

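Septum RNA from 27 fetuses was measured on 1-colour (Cy3) Agilent arrays. Per the submitters' processing notes, Agilent Feature Extraction 10.1.1.1 made the deposited scanner files, which per the file headers hold each spot's background-subtracted intensity and flags for brightness above background, saturation and outliers. The authors' deposited table holds log2 values that follow the scanner intensity once 1 constant is taken off per array (residual SD at most 2.06e-06), and the basis of that constant is not given in the sources used here.

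Here, log2 processed intensity was centred on each array's 75th percentile, leaving out outlying spots and averaging the spots of each probe. A probe had to be well above background on 6 or more arrays, and the 12778 that were so were fitted with limma 3.58.1 (lmFit, eBayes) in R 4.3.3, with 4 group means over 27 arrays, and called at a 2-sided Benjamini-Hochberg adjusted p under 0.05. Of 15008 probes, 1225 tested ones had a symbol, for 805 genes. Precision is limited by the number of arrays. The fit was checked on simulated data. The members and lists were chosen with earlier results of these data known. CYP2J was added to its list, and older symbols were matched, after the data were seen. The text names every probe of both genes. Of each list it names the genes past the threshold in the cortisol arm or in a cortisol comparison, or the 2 with the smallest p, by the probe with the highest mean, besides TTR and the other probes. It also names the 5 genes most like each member by Pearson r. Alternatives were normexp on mean and background intensity (offset 50), quantile and median scaling, the authors' table, other filters, slide and replicate number as blocks, trend with robust moderation, the 2 groups alone and each array left out.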

Additional observations from a re-analysis of the deposited data

Results flagged for a closer look

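In 12 groups of values (3 probes in 4 groups), 2 single arrays stood far from the rest of their group, where chance alone gives about 1 in 20. For the brighter UGT1A9 probe, control 140 d replicate 1 was the highest at -1.20 (log2 relative to the array's 75th percentile), and the next array of its group was at -2.57, a gap of 0.53 of the group's range. For the neighbouring UGT1A9 probe, control 130 d replicate 1 was the highest at -6.07 with the next at -8.42, a gap of 0.78 of the range. That spot was not well above background. No ALDH1A1 value stood apart in this way.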

How the results depend on the processing

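Of 27 alternatives for the rise of ALDH1A1 in the cortisol arm, 24 kept its direction and, where tested, its side of the threshold. It was no longer called with normexp (1.41), with only the 2 groups (1.40) or without cortisol 130 d replicate 1, and with 1 array left out it ran from 1.14 to 1.63 (control arm 1.34 to 1.77). The exact p, adjusted over 2 probes, ran from 0.00866 to 0.0649 for ALDH1A1 and from 0.506 to 0.974 for UGT1A9. With 1 array left out the UGT1A9 difference ran from -0.35 to 0.11 in the cortisol arm, from 1.09 to 1.62 in controls, from -0.78 to -0.33 for cortisol at 140 d and from 0.64 to 1.19 at 130 d. For ALDH1A1 cortisol gave 0.19 to 0.57 at 140 d and 0.25 to 0.74 at 130 d. The interaction ran from -0.39 to 0.10 for ALDH1A1 and from -1.80 to -1.25 for UGT1A9. Within slide 2 the ALDH1A1 interaction was 0.53. Within slide 3 cortisol at 140 d gave -0.36 for ALDH1A1 and 0.28 for UGT1A9, and UGT1A9 had 0.53 in the cortisol arm and an interaction of -0.62. Within slide 4 ALDH1A1 had 1.25 for cortisol at 130 d, and UGT1A9 had 2.77 in controls, -2.54 for cortisol at 140 d, -1.13 in the cortisol arm and an interaction of -3.90. Slide 4 held 1 array of each 140 d group and 2 of each 130 d group. Within slide 5, from 1 cortisol and 3 control arrays, ALDH1A1 had 0.00 for cortisol at 140 d. The cause of these moves was not tested.

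Normexp called 339 probes in the cortisol arm and 536 in controls, against 1720 and 2443. The share of calls that were higher at 140 d was 36.7% in the cortisol arm and 51.1% in controls, against 52.2% and 60.8% with normexp and 63.7% and 70.6% with median scaling. Normexp moved the median of all probes to 0.15 in controls and 0.20 for cortisol at 130 d. With 1 array left out, 1287 to 2419 probes were called in the cortisol arm and 1649 to 2823 in controls. For the interaction 0 to 2 were called, 1 without control 130 d replicate 5 and 2 without control 140 d replicate 6. Of 25 same-number pairs of arrays, 6 had a correlation of deviations over 0.1 (range -0.17 to 0.36). No values of other pairs are set beside these, and the replicate numbers partly follow the slides. These values therefore cannot settle whether the replicate numbers pair the fetuses. With replicate number as a block the cortisol arm gave 1.45 for ALDH1A1 and -0.03 for UGT1A9, the interaction had 1 call, and 1789 and 2494 probes were called in the cortisol and control arms. The mean of a gene's tested probes gave no separate value, since each gene had 1 tested probe.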
